A study of Rattus norvegicus with 6 samples.

Results

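The SLC25 genes encode the carriers that move metabolites, nucleotides and ions across the inner membrane of the mitochondrion, and a few related transporters of other membranes. They were taken from the array annotation as all genes with a symbol that starts with Slc25a and at least 1 probeset with that symbol alone. This gave 40 genes, read by 58 probesets, out of 12603 genes on the arrays. By the cargo they are known for, 12 were placed under nucleotides and nucleotide cofactors, 8 under amino acids, 4 under di- and tricarboxylates and 16 under other or unsettled cargo. Slc25a51l1, which had no cargo in the list used here, was placed under other. The 2 probesets annotated to Slc25a51 were left out because each pairs with more than 1 gene entry.

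The mRNA came from the rat insulinoma line INS-1, which is widely taken as a β-cell model. A single clone was used throughout, in which doxycycline (Dox) switches on a GFP fusion of insulin 2 carrying the misfolding C96Y mutation, and the untreated cells carry this transgene too. Cells were left untreated, or received Dox at 4 μg/ml, or received this dose of Dox together with 5 μM 4μ8c, which blocks RNA cleavage by the stress sensor IRE1, and were collected after 48 h. Each group had 1 array in each of 2 independent experiments, 6 arrays in all. All Dox-treated cells made the mutant proinsulin, so that effects of doxycycline itself, an antibiotic that acts on mitochondrial translation, and of mutant proinsulin cannot be told apart. In bulk RNA, fewer cells that express a gene and less RNA per cell cannot be told apart either.

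Each probeset had been centred within its experiment in the deposited log2 values, which therefore hold differences between arrays of one experiment and no signal levels. Levels of different carriers can therefore not be compared, and the β-cell markers could not be checked for presence. In experiment 1, 25.5% of all probesets had the same value on all 3 arrays and another 31.7% on 2 of them, against 0.64% with any equal values in experiment 2 (within 1e-06). Of the 58 SLC25 probesets, 10 were equal on all 3 arrays of experiment 1 and 14 on 2. A change of 0 in experiment 1 is thus a tie in the deposited values and carries no error of its own. Dox replicate 2 stood apart, with an SD over all probesets of 0.176 against 0.05 to 0.117 on the other arrays. Its 5′ to 3′ gap on the spiked-in control transcripts (median of 8 probeset pairs) was -0.534 relative to untreated of the same experiment, against -0.264 to -0.006 on the other treated arrays. Of the 7 β-cell markers measured, limma called Mafa and Iapp lower with Dox, at -0.56 and -0.25 on the log2 scale (28.6%, against 2.01% of all genes). By mean change 6 of the 7 were lower, among them Ins1 at only -0.03, and 1, Nkx6-1, was higher at 0.09. Of the 2 α-cell markers measured, the hormone gene Gcg was called lower, at -2.22, and Irx2 was at 0.15 (adjusted p = 0.345). With Dox+4μ8c against Dox, Mafa and Gcg were called higher, at 0.62 and 0.86, and Irx2 was at -0.06. These calls are 14.3% of the β-cell and 50.0% of the α-cell markers measured, against 0.175% of all genes. Against untreated, Gcg was still called lower with Dox+4μ8c, at -1.36 (limma adjusted p = 0.0061), whereas Mafa was at 0.06 and not called. Whether these shifts play a part in the changes of the carriers was not tested.

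Mitochondrial carriers link the cytosol with the matrix. ADP/ATP carriers exchange spent for new ATP, and the aspartate/glutamate and oxoglutarate/malate carriers form the malate-aspartate shuttle, which brings reducing equivalents of glycolysis into the mitochondrion. In β-cells these exchanges, together with the export of citrate and malate, are known to couple glucose metabolism to insulin secretion. Other members bring in the substrates for mitochondrial nucleic acids, heme, iron-sulfur clusters and fatty acid oxidation.

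Log2 changes are given as means over both experiments of the difference between 2 arrays of the same experiment. The standard error (SE) of a change and its p, adjusted by Benjamini-Hochberg, are those of a limma fit that holds the experiment as a term, and a gene was called at an adjusted p under 0.05 over all genes. The experiment is the replicate number of the labels, and p-values measure the spread between these arrays only. With Dox, 2 of the 40 carriers were called higher (5.0%, against 4.42% of all genes tested) and 1 was called lower (2.5%, against 2.01% of all genes). The called carriers were thus about as frequent as called genes on the whole array. At an unadjusted p under 0.05 from limma were 11 of the 40 carriers, a larger share than the 2476 of 12603 genes (19.6%). No carrier reached a change of 1.5 fold in any of the 3 comparisons. Such changes were rare on the whole array too. Of all 12603 genes, 144 reached it with Dox, 50 with Dox+4μ8c against Dox and 58 with Dox+4μ8c against untreated. The changes with Dox ran from -0.30 to 0.49 on the log2 scale, with a median of 0.029, against a median of 0.011 over all genes. In both experiments 18 carriers were higher with Dox (45.0%, against 26.6% of all genes) and 10 were lower (25.0%, against 24.8%). Ties in experiment 1 enter these shares, since the Dox and untreated values were equal there for 15.0% of the carriers and 25.2% of all genes.

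**Figure D1:**
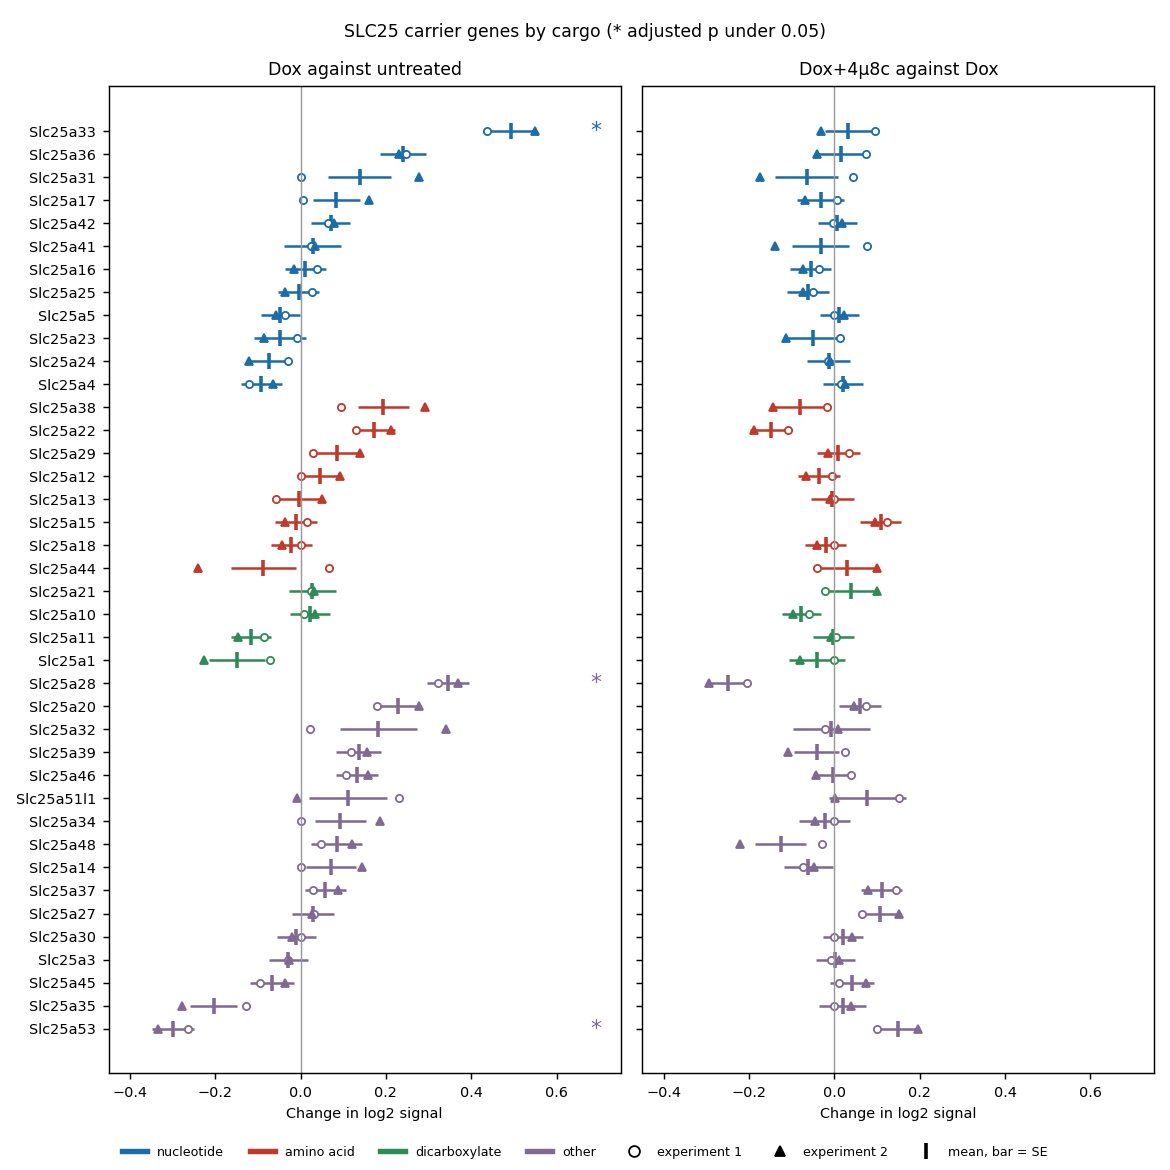
Change in log2 signal (x axis) of each of the 40 SLC25 genes with Dox against untreated cells (left) and with Dox+4μ8c against Dox (right), coloured by cargo. Circles and triangles are experiments 1 and 2, ticks the mean and bars its SE from limma, and stars mark an adjusted p under 0.05, which Slc25a33, Slc25a28 and Slc25a53 reached on the left and no gene on the right.

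The 4 carriers that were called in at least 1 comparison are Slc25a33, Slc25a28, Slc25a20 and Slc25a53. Their promoters are shown because these are the members on which the results turn. The sequences are the 250 bases before the gene start in RefSeq (rat build GRCr8), 5′ to 3′ on the gene's strand, and capitals mark matches to the motifs named below. The RefSeq span of Slc25a33 reaches beyond the start used here, so that other starts of this gene are not covered.
Slc25a33, chr5:165502974-165503223, strand -: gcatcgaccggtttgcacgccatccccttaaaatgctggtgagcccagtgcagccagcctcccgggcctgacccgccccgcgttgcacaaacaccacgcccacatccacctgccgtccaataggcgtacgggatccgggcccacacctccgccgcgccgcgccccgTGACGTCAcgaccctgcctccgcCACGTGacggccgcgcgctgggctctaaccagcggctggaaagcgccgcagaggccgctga
Slc25a28, chr1:252491343-252491592, strand -: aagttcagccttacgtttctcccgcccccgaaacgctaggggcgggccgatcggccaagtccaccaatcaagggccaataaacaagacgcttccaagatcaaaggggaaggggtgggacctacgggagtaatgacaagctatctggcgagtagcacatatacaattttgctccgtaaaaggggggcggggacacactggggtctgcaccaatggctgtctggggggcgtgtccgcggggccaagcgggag
Slc25a20, chr8:118243323-118243572, strand +: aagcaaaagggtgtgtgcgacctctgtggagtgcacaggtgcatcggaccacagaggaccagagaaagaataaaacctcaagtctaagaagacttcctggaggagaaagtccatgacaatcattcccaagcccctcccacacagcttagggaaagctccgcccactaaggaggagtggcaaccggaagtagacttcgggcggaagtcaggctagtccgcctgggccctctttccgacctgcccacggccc
Slc25a53, chrX:105111937-105112186, strand -: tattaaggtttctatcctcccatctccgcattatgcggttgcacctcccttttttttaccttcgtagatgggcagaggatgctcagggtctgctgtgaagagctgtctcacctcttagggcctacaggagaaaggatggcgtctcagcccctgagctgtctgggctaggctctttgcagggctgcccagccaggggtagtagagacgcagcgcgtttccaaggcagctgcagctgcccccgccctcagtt
Both strands of these windows were searched for TGATGNAA (the C/EBP-ATF element, bound by ATF4), TGACGTCA (the cyclic AMP response element, which ATF and CREB factors bind), TGACGTGG (the UPR element of XBP1 and ATF6) and CACGTG (the E-box). Slc25a33 had TGACGTCA at positions -84 to -77 and CACGTG at positions -61 to -56, counted back from the start, and these did not overlap. The other 3 promoters held none of these letters. Of 33469 windows of the same length over all genes, 3.4% held TGATGNAA, 1.59% TGACGTCA, 0.52% TGACGTGG and 5.59% CACGTG. Among the 34 SLC25 genes with an entry, 2 had TGACGTCA (Slc25a33 and Slc25a25), 3 had CACGTG (Slc25a33, Slc25a31 and Slc25a48), and none had the other motifs. A match is a description of the sequence only.

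Among the carriers of nucleotides, Slc25a33 rose with Dox and was equally high with Dox+4μ8c. It encodes a carrier of pyrimidine nucleotides, which supplies the matrix with precursors for mitochondrial DNA and RNA. Its centred log2 values in untreated, Dox and Dox+4μ8c cells were -0.44, 0.00 and 0.10 in experiment 1 and -0.28, 0.27 and 0.24 in experiment 2. The untreated array was thus the lowest of its experiment both times, and the treated arrays lay close together. The change with Dox was 0.49 (SE 0.05, adjusted p = 0.0053), or 1.41 fold, with 0.44 and 0.55 in experiments 1 and 2. With Dox+4μ8c it was 0.53 above untreated (SE 0.05, adjusted p = 0.0103). The difference between Dox+4μ8c and Dox was 0.03, with a 95% interval from -0.10 to 0.16, and its sign was not the same in both experiments. Slc25a33 remained called with Dox in each fit that left out 1 array, but its adjusted p was 0.0682 without the experiment term. The call with Dox+4μ8c did not pass without that term (adjusted p = 0.12), where 0 of all genes were called in this comparison. It did not pass either without untreated replicate 1 or untreated replicate 2, or without either Dox+4μ8c array.

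Slc25a36, the other carrier of pyrimidine nucleotides, had values of the same order. They were -0.25, 0.00 and 0.07 in untreated, Dox and Dox+4μ8c cells of experiment 1 and -0.08, 0.15 and 0.11 in experiment 2. The untreated array was again the lowest in both experiments, but the change of 0.24 with Dox (SE 0.05, adjusted p = 0.0558) and of 0.26 with Dox+4μ8c (adjusted p = 0.0782) missed the threshold. Its 2 probesets gave 0.23 and 0.24 with Dox, so that they were of one sign and size. For Dox+4μ8c against Dox they were of opposite sign, at 0.09 and -0.05. It was called with Dox if Dox replicate 1 was left out (adjusted p = 0.0454).

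None of the 3 ADP/ATP carriers, which bring ATP of oxidative phosphorylation to the cytosol, passed, and their values differed in sign. Slc25a4 was at -0.09 with Dox (95% interval -0.21 to 0.02, adjusted p = 0.352) and Slc25a5 at -0.05 (95% interval -0.16 to 0.06, adjusted p = 0.598). Slc25a4 and Slc25a5 were below untreated in each experiment and with each treatment. Slc25a31, the third ADP/ATP carrier, was at 0.14 with Dox (95% interval -0.04 to 0.32, adjusted p = 0.366) and at 0.07 with Dox+4μ8c (adjusted p = 0.691), and its Dox and untreated values of experiment 1 were equal. The other 7 nucleotide carriers, which include the ATP-Mg/phosphate and coenzyme A carriers, had changes between -0.08 and 0.08 with Dox and none was called. Over the 12 genes, 5 were higher (41.7%, against 26.6% of all genes) and 4 lower (33.3%, against 24.8%) in both experiments. Ties in experiment 1, which count in neither direction, were at 8.3% of these genes and 25.2% of all genes. Their median was 0.02, against 0.011 over all genes.

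No amino acid carrier was called in any comparison. The carriers of the aspartate/glutamate exchange, which the malate-aspartate shuttle needs, were within 0.05 of untreated with Dox. Slc25a12 was at 0.05 (95% interval -0.07 to 0.16) and Slc25a13 at -0.004 (95% interval -0.13 to 0.12), and for Slc25a12 the untreated and Dox arrays of experiment 1 were equal. The 2 probesets of Slc25a13 gave -0.08 and 0.07, so that their mean near 0 combines values of opposite sign.

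Slc25a22, a glutamate carrier with a known part in insulin secretion, was highest in Dox cells in both experiments. Its values in untreated, Dox and Dox+4μ8c cells were -0.02, 0.11 and 0.00 in experiment 1 and -0.02, 0.19 and 0.00 in experiment 2. Dox+4μ8c cells lay next to untreated cells, at a difference of 0.02. The change with Dox was 0.17 (SE 0.05, adjusted p = 0.109) and the difference between Dox+4μ8c and Dox was -0.15 (SE 0.05, adjusted p = 0.297), and neither passed. The second glutamate carrier, Slc25a18, was at -0.02 with Dox, and its 3 arrays of experiment 1 were equal.

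Slc25a38, which brings glycine into the matrix for heme synthesis, was higher with Dox by 0.10 and 0.29 in experiments 1 and 2, a mean of 0.19 that did not pass (adjusted p = 0.137). Without Dox replicate 1, so that Dox replicate 2 stood alone for its group, it was called at 0.275 (adjusted p = 0.0312). Slc25a15, the ornithine/citrulline carrier, was at -0.01 with Dox and at 0.11 with Dox+4μ8c against Dox (95% interval -0.01 to 0.23, limma adjusted p = 0.488). All 6 of its probesets were higher with Dox+4μ8c than with Dox on average, by 0.06 to 0.17, and they read 1 transcript in the same RNA. Slc25a29 and Slc25a44, carriers of basic and of branched-chain amino acids, were at 0.08 and -0.09 with Dox.

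Of the 4 di- and tricarboxylate carriers, those of citrate and of oxoglutarate/malate were lower in treated cells and the others were near 0. Slc25a1, the citrate carrier that supplies carbon for fatty acid synthesis, had values of 0.07, 0.00 and -0.001 in untreated, Dox and Dox+4μ8c cells of experiment 1 and 0.23, 0.01 and -0.07 in experiment 2. Untreated cells were thus the highest in both experiments, by less in experiment 1. The changes were -0.15 with Dox (SE 0.07, adjusted p = 0.280) and -0.19 with Dox+4μ8c (SE 0.07, adjusted p = 0.229), and neither passed. Slc25a11, the oxoglutarate/malate carrier, was at -0.12 with each treatment (adjusted p = 0.252 and 0.309), below untreated in both experiments. Slc25a10, the carrier of malate and succinate, was at 0.02 with Dox (95% interval -0.09 to 0.13), and its 2 probesets gave values of opposite sign, -0.03 and 0.07. Slc25a21, the carrier of oxoadipate, was at 0.03.

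Among the carriers of other cargo, Slc25a28 rose with Dox and lay between untreated and Dox cells when 4μ8c was added. It encodes mitoferrin-2, which brings iron into the matrix for heme and iron-sulfur clusters. Its values in untreated, Dox and Dox+4μ8c cells were -0.12, 0.20 and 0.00 in experiment 1 and -0.04, 0.33 and 0.04 in experiment 2. The Dox array was the highest and the untreated array the lowest of each experiment. The rise with Dox was 0.35 (SE 0.05, adjusted p = 0.0126), or 1.27 fold, with 0.32 and 0.37 in experiments 1 and 2. With Dox+4μ8c it was at 0.10 above untreated (adjusted p = 0.426), and its difference from Dox was -0.25 (SE 0.05, 95% interval -0.37 to -0.13, adjusted p = 0.0772), which did not pass. That difference was the largest of the 40 carriers in this comparison, and passed only in the fit without Dox replicate 1 (-0.28, adjusted p = 0.0397). The rise with Dox did not pass without untreated replicate 1 or untreated replicate 2 (adjusted p = 0.0828 and 0.0929), with nearly the same size.

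The related iron carrier Slc25a37, mitoferrin-1, followed another order. Its values were -0.03, 0.00 and 0.14 in untreated, Dox and Dox+4μ8c cells of experiment 1 and -0.04, 0.04 and 0.12 in experiment 2, so that Dox+4μ8c cells were the highest both times. The change was 0.06 with Dox (adjusted p = 0.538) and 0.17 with Dox+4μ8c (SE 0.05, adjusted p = 0.153), and neither passed.

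Slc25a20, the carnitine/acylcarnitine carrier, which lets fatty acids into the matrix for oxidation, was higher with both treatments and passed with Dox+4μ8c. Its values were -0.18, 0.00 and 0.07 in untreated, Dox and Dox+4μ8c cells of experiment 1 and -0.26, 0.02 and 0.07 in experiment 2. The untreated array was the lowest and the Dox+4μ8c array the highest of each experiment. It was at 0.23 with Dox (SE 0.05, adjusted p = 0.0506), just short of the threshold, and rose by 0.29 with Dox+4μ8c (SE 0.05, adjusted p = 0.0477), or 1.22 fold. Both adjusted p-values lie next to the threshold, and the second did not pass without untreated replicate 1, untreated replicate 2 or either Dox+4μ8c array (0.138 to 0.427), nor without the experiment term (0.0778) or on single probesets (0.104). Without the experiment term, 0 of all genes were called for Dox+4μ8c against untreated. The difference of 0.06 between Dox+4μ8c and Dox did not pass (95% interval -0.06 to 0.18).

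Slc25a53, a family member with no settled cargo, was the carrier called lower with Dox. Its values in untreated, Dox and Dox+4μ8c cells were 0.16, -0.10 and 0.00 in experiment 1 and 0.07, -0.27 and -0.07 in experiment 2. The Dox array was the lowest of each experiment, with Dox+4μ8c between it and untreated. The fall was -0.30 (SE 0.05, adjusted p = 0.0213), or 0.81 of untreated, with -0.26 and -0.34 in experiments 1 and 2. With Dox+4μ8c it was at -0.15 (adjusted p = 0.206), and its difference from Dox was 0.15 (SE 0.05, adjusted p = 0.307). The fall was called without Dox replicate 1 and in no fit that left out one of the other 5 arrays, where the change stayed between -0.31 and -0.26 and the adjusted p was 0.0674 to 0.148. Without Dox replicate 2, the array that stood apart, the change was -0.26 (adjusted p = 0.0674), and without the experiment term the adjusted p was 0.0753.

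Slc25a35, also without a settled cargo, was lower with Dox at -0.20 (SE 0.06, adjusted p = 0.0936) and with Dox+4μ8c at -0.18 (adjusted p = 0.172), in both experiments. Its values were 0.13, 0.00 and 0.00 in untreated, Dox and Dox+4μ8c cells of experiment 1 and 0.12, -0.16 and -0.12 in experiment 2. It was called with Dox only without Dox replicate 1 (adjusted p = 0.0481). Slc25a3, the phosphate carrier that ATP synthesis depends on, was at -0.03 with each treatment, with a 95% interval of -0.14 to 0.08 for both. Slc25a27, a relative of the uncoupling proteins, was at 0.03 with Dox and at 0.14 with Dox+4μ8c (adjusted p = 0.257), and all 3 of its probesets were higher with Dox+4μ8c than with Dox on average. The paralog Slc25a51l1 was higher with Dox by 0.23 in experiment 1 and at -0.01 in experiment 2. Over the 16 genes of this class the median change with Dox was 0.078, against 0.011 over all genes. In both experiments 8 were higher (50.0%, against 26.6% of all genes) and 4 lower (25.0%, against 24.8%), with ties in experiment 1 at 18.8% against 25.2%. In each direction 1 was called (6.2%, against 4.42% of all genes called higher and 2.01% lower).

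**Figure D2:**
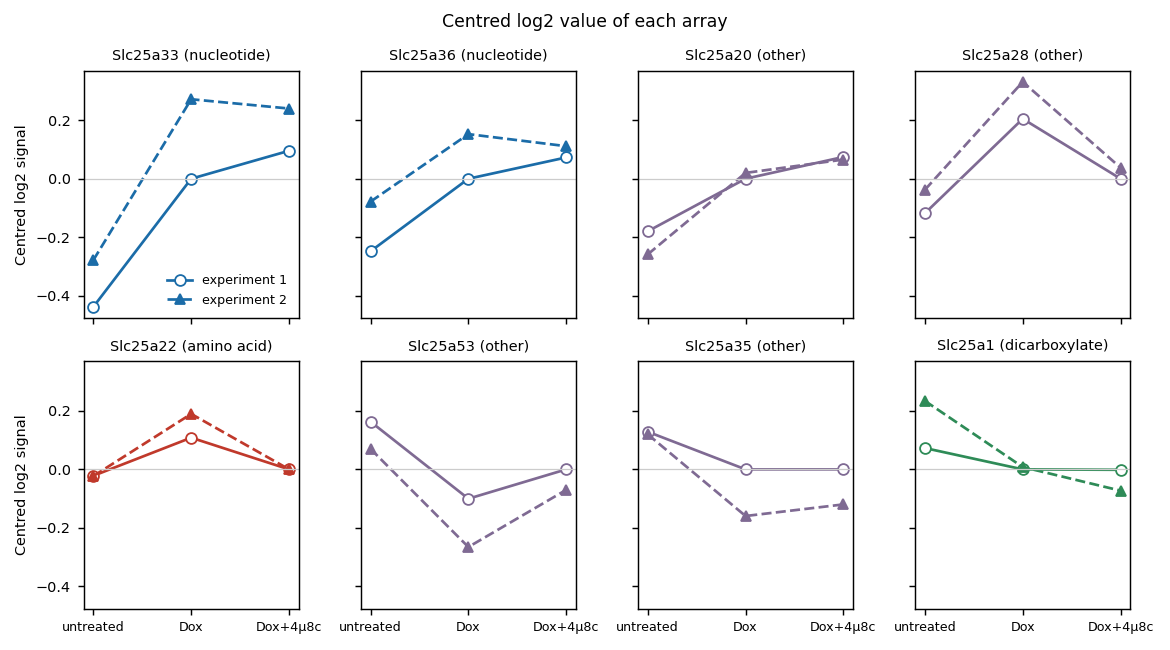
Centred log2 value (y axis) on each array for 8 SLC25 genes, with the groups along the x axis and a line for each experiment (circles, experiment 1, and triangles, experiment 2). Slc25a33, Slc25a36 and Slc25a20 are lowest in untreated cells and lie above that value with Dox+4μ8c too. Slc25a28 and Slc25a22 are highest in Dox cells, and Slc25a53 has its lowest value there. In the fit to all 6 arrays no difference between Dox+4μ8c and Dox passed. Slc25a36 and Slc25a22 were called in no comparison of that fit.

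The comparison of Dox+4μ8c with Dox shows how these values differ when 4μ8c is added to Dox-treated cells. No array with 4μ8c alone is among the samples. Effects of blocked RNA cleavage by IRE1 and other effects of the compound can therefore not be told apart. No carrier was called (0 of 40), against 0.175% of all genes called higher and 1.61% called lower. At an unadjusted p under 0.05 from limma, Slc25a28 and Slc25a22 were lower and Slc25a53 was higher, 3 of 40 carriers, against 11.2% of all genes at that level. The count of 0 also held with the other forms of the test, except without Dox replicate 1, where Slc25a28 was called. The differences ran from -0.25 to 0.15 with a median of -0.004, against -0.014 over all genes, and 8 carriers were higher and 11 lower in both experiments, against 19.0% and 26.9% of all genes. Slc25a48, the gene with the third largest negative difference, was at -0.13 (adjusted p = 0.516), of which -0.22 came from experiment 2 and -0.03 from experiment 1. Slc25a15, Slc25a27 and Slc25a37 were at 0.11 each, which did not pass.

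With Dox+4μ8c against untreated, Slc25a33 and Slc25a20 were called higher (5.0%, against 1.17% of all genes) and none was called lower (against 1.13%). The carriers named as called with Dox alone, Slc25a28 and Slc25a53, were not called here, but their differences between Dox+4μ8c and Dox did not pass either. At an unadjusted p under 0.05 were 10 carriers, against 15.4% of all genes. In both experiments 15 carriers were higher (37.5%, against 23.9% of all genes) and 10 lower (25.0%, against 28.9%). Ties in experiment 1 enter these shares too, at 15.0% of the carriers and 27.3% of all genes. Changes ran from -0.19 to 0.53, with a median of 0.01 against -0.002 over all genes. Both comparisons with untreated cells share the untreated arrays, so that the values of a gene in them are not independent. By class, the median with Dox+4μ8c was -0.019 for nucleotide, 0.016 for amino acid, -0.087 for dicarboxylate and 0.082 for other carriers.

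**Figure D3:**
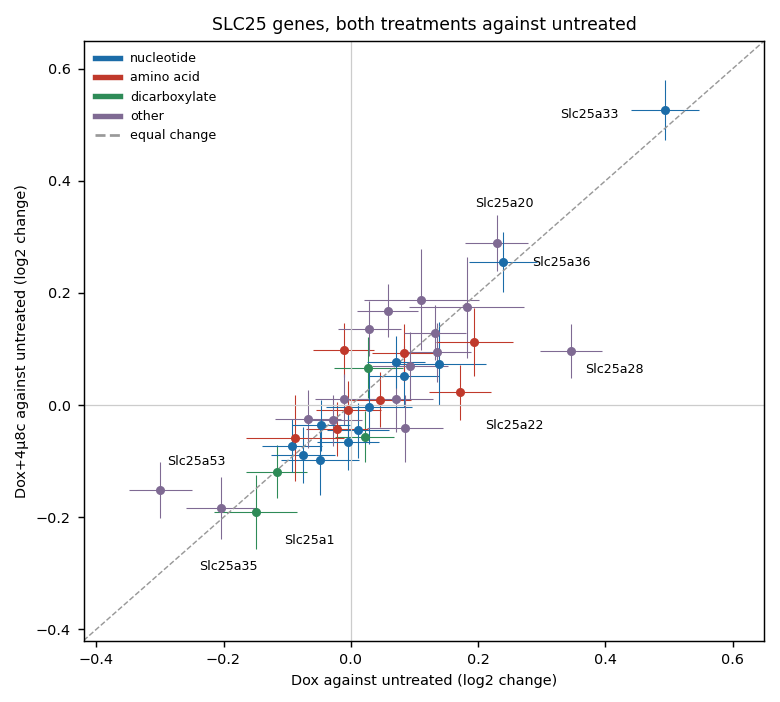
Log2 change of the 40 SLC25 genes with Dox (x axis) and with Dox+4μ8c (y axis), both against the same untreated arrays, with SE bars from limma and colours by cargo. Slc25a33 lies near the line of equal change at 0.49 and 0.53, and Slc25a28 lies furthest below it at 0.35 and 0.10.

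The genes that work beside the carriers were read from 4 lists. These were chosen with earlier results of these data known, so that the share of a list that was called is no test of the list. Of 22 enzymes on either side of the carriers, 6 rose with Dox (27.3%, against 4.42% of all genes) and none fell (against 2.01%). Mthfd2 and Shmt2 of the mitochondrial folate cycle rose by 1.01 (adjusted p = 0.0012) and 0.68 (adjusted p = 0.0032). Oat, ornithine aminotransferase, rose by 1.05 (adjusted p = 0.0012) and Aldh18a1, which makes the precursor of proline and ornithine, by 0.66 (adjusted p = 0.0040). Cpt1a, which makes the acylcarnitines that Slc25a20 carries, rose by 0.36 (adjusted p = 0.0095), and Got1, a cytosolic enzyme of the malate-aspartate shuttle, by 0.33 (adjusted p = 0.0305). The other shuttle enzymes Mdh1, Mdh2 and Got2 were at 0.07, 0.04 and -0.03 with Dox, and none of them was called. The changes of Mthfd2, Oat, Shmt2 and Aldh18a1 exceeded that of every SLC25 gene, including Slc25a15 at -0.01, which carries the ornithine on which Oat acts. Slc25a32, the folate carrier, was at 0.18 with Dox (SE 0.09, adjusted p = 0.334), with 0.02 and 0.34 in experiments 1 and 2, and did not pass. With Dox+4μ8c, Mthfd2, Shmt2, Aldh18a1 and Cpt1a were still called above untreated, at 0.85, 0.65, 0.58 and 0.52 (18.2% of the list, against 1.17% of all genes). Oat was lower with Dox+4μ8c than with Dox by 0.79 (adjusted p = 0.0129), the one call of the list in that comparison (4.5%, against 1.61% of all genes called lower). Without the experiment term, only Oat and Cpt1a were called with Dox. None was called with Dox+4μ8c against untreated, where that fit called 0 of all genes. In fits with 1 array left out, Oat, Mthfd2, Shmt2 and Aldh18a1 were called with Dox each time. The difference of Oat between Dox+4μ8c and Dox did not pass on single probesets, where 0 of all genes were called in this comparison. This difference also did not pass with either one of the Dox+4μ8c arrays left out. The 4 calls with Dox+4μ8c became none without untreated replicate 1 or Dox+4μ8c replicate 1, and 1 (Mthfd2) without Dox+4μ8c replicate 2.

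Of 13 genes that import carriers into the inner membrane, Timm29 of the TIM22 complex rose with Dox, by 0.26 (adjusted p = 0.0455), and none fell. This 1 call is 7.7% of the list, against 4.42% of all genes called higher and 2.01% called lower. The small TIM chaperones Timm8a1 and Timm9 were at 0.26 and 0.14, which did not pass (adjusted p = 0.0670 and 0.176). Timm29 did not pass with any 1 array left out, without the experiment term, or with arrays centred on their median. None of the 9 other transporters of the inner membrane was called, among them the serine carrier Sfxn1 at 0.16 (adjusted p = 0.205) and the pyruvate carrier subunit Mpc1 at -0.09 (adjusted p = 0.377). With Dox, 4.42% of all genes were called higher and 2.01% lower, and 1 of these 9 transporters was at an unadjusted p under 0.05 from limma, against 19.6% of all genes. Of 5 family members with other symbols, Ucp2, a carrier of the mitochondrial membrane with a known effect on insulin secretion, fell with Dox by 0.28 (SE 0.06, adjusted p = 0.0442), the 1 call of the list against 2.01% of all genes called lower, and was at -0.26 with Dox+4μ8c (adjusted p = 0.0881). Its changes with Dox were -0.25 and -0.31 in experiments 1 and 2, and the fall did not pass with any 1 array left out or on single probesets. Ucp1, Ucp3, Mtch1 and Mtch2 lay between -0.095 and 0.05 with Dox.

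**Figure D4:**
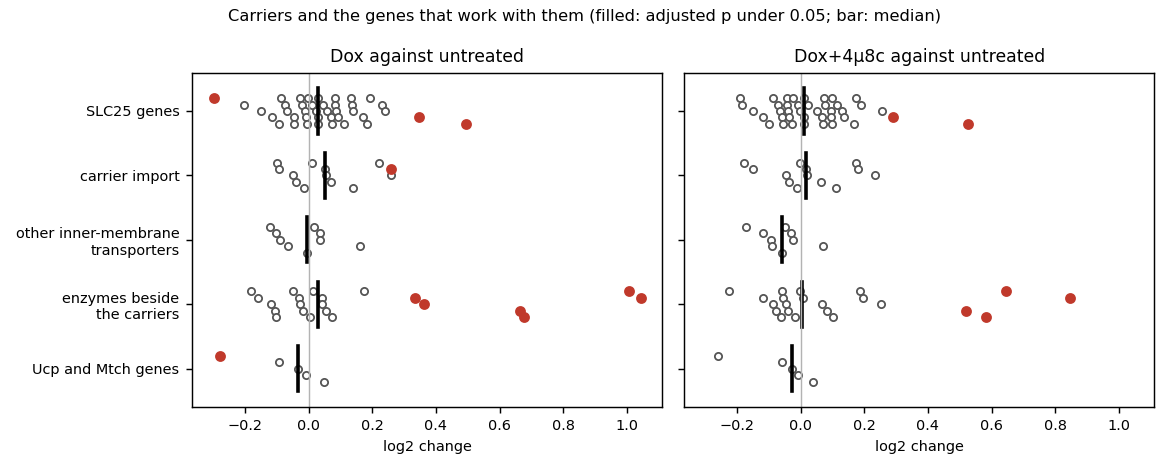
Log2 change (x axis) with Dox (left) and with Dox+4μ8c (right), both against untreated, of the 40 SLC25 genes and of 4 lists of genes that work with them or are related. Points are genes, filled where the adjusted p was under 0.05, and bars are medians, and the enzyme list holds the largest changes, up to 1.05 with Dox. The lists were chosen with earlier results of these data known.

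Probesets set a further limit. Of the 12 carriers with more than 1 probeset, 5 had probesets of opposite sign with Dox, namely Slc25a10, Slc25a13, Slc25a15, Slc25a27 and Slc25a30. With Dox+4μ8c the number was 6 against Dox and 4 against untreated. Each called carrier was read by 1 probeset. RefSeq lists pseudogenes of 12 of the 40 carriers, with 9 of Slc25a5, 8 of Slc25a39 and 1 each of Slc25a33, Slc25a36 and Slc25a53. Whether a probeset also reads their transcripts was not tested.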

How the data were processed

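Per the labels, an input of 200 ng total RNA was amplified and biotin-labelled with a 3′ IVT protocol for rat expression arrays. The labels give Dox at 4 μg/ml, whereas the methods give 2 μg/ml. The log2 values deposited by the authors were made with RMA (the submitters' processing notes, no version), and were centred per probeset within an experiment. The median over the 3 arrays of experiment 1 was 0 in 100% of probesets (0.84% in experiment 2, whose values would all allow a median of 0 over 4 arrays, the methods naming a group with 4μ8c alone that is not analysed here). The number of arrays limits the precision, and no depth or detection call applies.

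Of the 25476 probesets, the 17978 with 1 gene symbol in the platform annotation were averaged per gene, which gave 12603 genes. No filter on low signal was applied. A two-sided moderated test by lmFit and eBayes (R 4.3.3 with limma 3.58.1, residual df 2 and prior df 4.25) was fitted to all genes and 6 arrays, with 3 groups and the experiment as a term, because the centring leaves only differences within an experiment. As a check of the pairing, same-numbered arrays were compared by how far each lay from its group mean (r = 0.03, 0.10 and 0.03 over genes). Centring removes any offset that an experiment shares, so that the pairing rests on the study's account of independent experiments. Cargo classes and partner lists were written from general knowledge, and the members and lists were chosen with earlier results of these data known. Named carriers were those called in any comparison, the 4 highest and 4 lowest of each comparison, and 12 carriers of central metabolism. Further carriers are named where their cargo, probesets, promoters or pseudogenes are described. From each partner list, the called genes and up to 3 with the smallest p are named, fewer where none was near the threshold. The remaining shuttle enzymes and family members are named as well. Motifs were searched in RefSeq promoters (GRCr8). The fit was tested on simulated data with a spread drawn from these arrays. For Dox against untreated it called 36.0% of the genes changed 1.25 fold and 74.0% of those changed 1.5 fold. Of the unchanged genes it called 0.032%. Alternatives were the fit without the experiment term, single probesets, probesets ending in _s_at or _x_at left out, arrays centred on their median, robust eBayes and each array left out. Python 3.11.15, pandas 2.3.3, scipy 1.17.1 and matplotlib 3.10.9 were used for counts and figures.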

Additional observations from a re-analysis of the deposited data

How the results depend on the processing

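The 3 carriers called with Dox against untreated (Slc25a33, Slc25a28 and Slc25a53) were the same with single probesets, with probesets ending in _s_at or _x_at left out, with arrays centred on their median and with robust eBayes. Each of the 3 was read by 1 probeset, which ends in neither _s_at nor _x_at. The fits on single probesets and without such probesets thus used the same values for them. Those fits could differ for the 3 only through the other genes. Without the replicate block (the experiment term) 2 were called, Slc25a28 and Slc25a20, and with 1 array left out 1 to 8, with 8 without Dox replicate 1 and 1 (Slc25a33) without untreated replicate 1 or untreated replicate 2. For Dox+4μ8c against Dox the count was 0 without the replicate block and 0 to 1 with 1 array left out. For Dox+4μ8c against untreated the 2 calls became 0 without the replicate block (10 at an unadjusted p under 0.05), 1 with single probesets, and 0 to 3 with 1 array left out, with 0 without untreated replicate 1, untreated replicate 2 or either Dox+4μ8c array and 3 (Slc25a36 added) without Dox replicate 1 or Dox replicate 2. Without the replicate block, 0 of all genes were called for Dox+4μ8c against untreated. The loss of both carrier calls there is thus shared by the whole array and says nothing about the carriers in particular. The same holds for Dox+4μ8c against Dox on single probesets, where 0 of all genes were called. Carrier counts of the other fits are given without the share of all genes called in them. An array left out leaves 1 in its group, which is then taken to vary like the others. In the comparison in which it was called, no carrier changed sign in these fits. Slc25a33, not called for Dox+4μ8c against Dox (0.03), was at -0.03 there without Dox replicate 1 and at -0.004 without Dox+4μ8c replicate 1. The median change of the carriers with Dox was 0.017 to 0.054 over the arrays left out. The same alternatives for the partner lists were added after the data were seen, and the calls they changed stand with the genes. The ties in experiment 1 and the centring limit all values here, and both were present in the deposited values. With 2 arrays a group, small changes of the carriers may be missed.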
